A study of Drosophila melanogaster with 12 samples.

Results

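The subject here is the difference between slbo mutant and wild-type (WT) ovarian cells of Drosophila melanogaster that 2 cell fractions of the ovary had in common. The arrays were assigned by the genotype in their titles, which placed all 12 arrays of the series in the comparison, 6 slbo against 6 WT. The slbo flies carried the alleles slboe7b and slboLy6 together with slbo-Gal4 and UAS-mCD8-GFP, and the WT flies carried slbo-Gal4 and UAS-mCD8-GFP with no slbo allele named. Both genotypes therefore carried the same driver, in which slbo sequences direct Gal4, and the same membrane tag. In each genotype 3 arrays held migratory cells, which expressed the tag and were caught with magnetic beads against mouse CD8, and 3 arrays held the cells left behind, called nonmigratory. The flies were females aged 2 to 7 days where a label gave the age, which 1 slbo nonmigratory array did not. Another slbo nonmigratory array had no genotype label beside its title. Arrays with a common number were not stated to be 1 preparation, so p-values measure the spread between these arrays.

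slbo encodes a C/EBP transcription factor, a basic leucine zipper protein that binds DNA as a dimer. In the ovary it is known for the border cells, a small cluster of follicle cells that leaves the follicular epithelium and migrates between the germline nurse cells to the oocyte, and which fails to migrate on time in slbo mutants. The follicular epithelium around the germline later secretes the eggshell, first the vitelline membrane and then the chorion. Digestive lysozymes, Jonah serine proteases, trypsins, amylases and maltases are secreted enzymes known chiefly from the midgut.

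Signals were MAS5 values, a summary of the probes of each probe set on a linear scale, and differences are given as slbo minus WT on a log2 scale after adding a constant of 7.50. A feature is a gene, or a probe set with no single gene name. A feature was called where its Benjamini-Hochberg adjusted p from limma was under 0.05 over all 8978 features tested. The first principal component of the arrays held 22.5% of the variance and parted the fractions, and the genotypes did not overlap on the second. The GAPDH 5′ to 3′ signal ratio, a measure of RNA integrity, lay between 0.0932 and 0.184 on slbo arrays and between 0.0783 and 0.200 on WT arrays (difference 0.0117, exact permutation p = 0.445, two-sided, genotypes exchanged within fractions). In migratory cells it was 0.0932 to 0.150 in slbo and 0.0783 to 0.0947 in WT. In nonmigratory cells it was 0.134 to 0.184 in slbo and 0.158 to 0.200 in WT. The test averages both fractions, so it does not show that the ratio was matched within each. The 11 main body follicle cell markers had summed signals of 126990 to 173180 on slbo arrays and 152340 to 187420 on WT arrays. Where the label migratory was checked against 5 border cell markers other than slbo, their summed signal was 700 to 821 in slbo migratory cells and 991 to 1079 in WT migratory cells. In nonmigratory cells it was 876 to 990 in slbo and 784 to 853 in WT. Thus the markers were lower in the migratory than in the nonmigratory fraction on the slbo arrays. On the WT arrays they were higher in the migratory fraction, with no overlap in either case. They include shg, a known slbo-dependent gene of border cells, so on slbo arrays they cannot check the label apart from the genotype.

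The targeted gene was low in both mutant fractions. The slbo signal was 44.3, 51.4 and 35.1 in slbo migratory cells, against 275, 197 and 167 in WT migratory cells. It was 87.3, 19.0 and 82.9 in slbo nonmigratory cells, against 115, 113 and 149 in WT nonmigratory cells. All 6 slbo arrays lay below all 6 WT arrays, and the slbo transcript fell by 1.60 on the log2 scale (3.04-fold, SE 0.30, n = 6 per genotype, limma adjusted p = 0.00653). Exchanging genotypes within fractions gave an exact permutation p = 0.005 (two-sided), the smallest that the 400 rearrangements allow. It fell by 2.09 in migratory and by 1.11 in nonmigratory cells, and the interaction of genotype and fraction was not called (limma adjusted p = 0.787). The call held when any 1 array was left out (adjusted p 0.00331 to 0.0214). It was lost with the level of gut transcripts as a covariate (log2 -0.96, adjusted p = 0.768). Only 1 probe set measured slbo, and whether it lies within the sequence changed by either allele was not given in the sources used here.

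**Figure D1:**
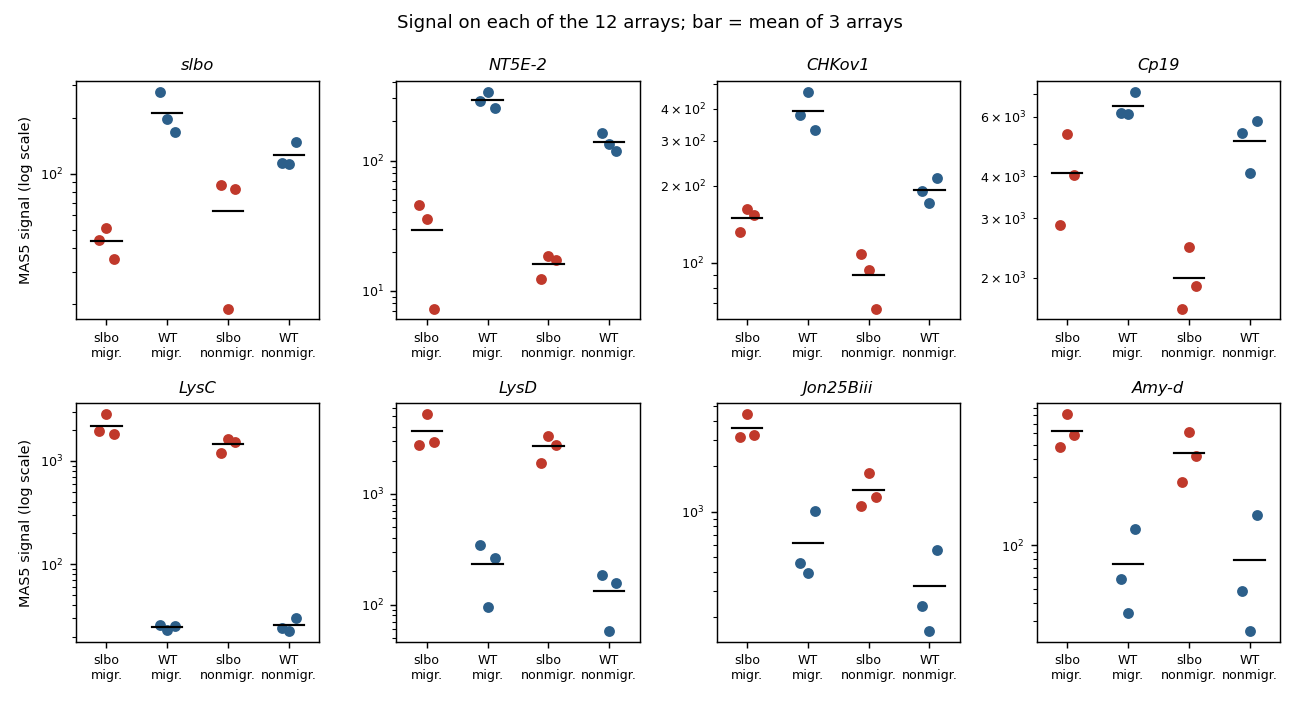
MAS5 signal (log axis) of 8 genes on each array, in the order slbo migratory, WT migratory, slbo nonmigratory and WT nonmigratory, with points for arrays and a bar for the mean of 3. slbo, NT5E-2 and CHKov1 lie lower on all slbo arrays than on any WT array, Cp19 lies lower within each fraction, and LysC, LysD, Jon25Biii and Amy-d lie higher on all slbo arrays.

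Over both fractions the mutant had more and larger increases than decreases. Of 8978 features 290 were called (3.23%), 164 higher (1.83%) and 126 lower (1.4%) in slbo cells, and 1232 had an unadjusted p under 0.05 (13.7%). The median difference was 1.17 among the features called higher and -0.65 among those called lower, beside 0.01 over all features tested. At least 2-fold differences were reached by 101 of the higher and 29 of the lower features. After centring each array on its median, 127 were higher and 161 lower, so that the balance of directions rested on the scaling. Leaving out slbo migratory replicate 1 left 185 calls. With the gut transcript level as a covariate 12 features were called, 4 higher and 8 lower, and 6 of them were among the 290. That level did not overlap between the genotypes in either fraction, so genotype and gut transcript level cannot be told apart by this fit.

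The 2 largest increases were in lysozyme genes. LysC had signals of 1203 to 2821 (median 1729) on the slbo arrays and 22.7 to 30.4 (median 25) on the WT arrays. The WT values were at the level of absent control probe sets, whose 95th percentile averaged 39.2, so LysC was at least 37.9-fold higher in slbo cells (log2 5.76 as fitted, SE 0.16, adjusted p = 5.57e-13). The RefSeq table lists LysC as a pseudogene, and its probe set may bind transcripts of the related lysozyme genes. LysD had 1914 to 5233 (median 2877) on slbo arrays and 57.9 to 346 (median 171) on WT arrays, which gave an increase of 18.4-fold (log2 4.20, SE 0.30, adjusted p = 5.09e-07). LysB (log2 2.40, SE 0.20) had 3255 to 6834 on slbo arrays and 438 to 1094 on WT arrays. LysE (log2 2.31, SE 0.16) had 1869 to 4060 on slbo arrays and 417 to 872 on WT arrays. In each of these 4 genes the lowest slbo array exceeded the highest WT array.

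The remaining lysozymes did not follow. Of 6 lysozyme genes tested 4 were higher and none was lower (median log2 2.35), beside 1.83% of all features called higher and 1.4% lower. LysP (log2 0.03) and LysS (log2 -0.14) were not called and LysX was below the filter. LysP averaged 40.6 on slbo arrays and 38.2 on WT arrays, near the 39.2 of the absent controls, so a change in it could hardly be seen. LysS was bright in both genotypes, with 531 to 922 on slbo arrays and 586 to 1078 on WT arrays. LysB, LysD, LysE, LysP and LysS are adjacent protein-coding genes on chromosome arm 3L in the RefSeq gene order, so the called and the uncalled members lie side by side.

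Several secreted proteases rose as well. Jon25Biii, a Jonah protease of the chymotrypsin type, had 1093 to 4417 (median 2461) on slbo arrays and 163 to 1018 (median 428) on WT arrays, a 5.38-fold increase (log2 2.43, SE 0.27, adjusted p = 7.99e-05). Its neighbours on arm 2L, Jon25Bii (log2 2.06, SE 0.22) and Jon25Bi (log2 2.04, SE 0.45), also rose, and all 6 slbo arrays exceeded all 6 WT arrays for each of the 3 genes. Of 13 Jonah genes tested 6 were higher and 7 were not called, and all 13 differences were positive (median log2 0.99). Over all features 1.83% were called higher. Jon65Aii (log2 1.64) and Jon99Fii (log2 1.51) were also called. Of 11 trypsin genes 5 were higher and 6 not called (median log2 1.12), beside the same 1.83% of all features. Those called higher included alphaTry (log2 1.86), epsilonTry (log2 1.19) and lambdaTry (log2 1.12). The call of betaTry (log2 1.54, adjusted p = 0.0298) was lost when any of 10 arrays was left out, at adjusted p values up to 0.0701. Without the variance trend Jon25Bi and alphaTry were no longer called (adjusted p = 0.0788 for each). Jon25Bi, alphaTry and betaTry also lost their calls when both fractions of a genotype and number were averaged. The trypsin and Jonah genes are families of similar sequence, so that probe sets may bind transcripts of relatives.

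Enzymes that digest starch, sugars and glycans formed a further group. The amylase gene Amy-d had 274 to 815 (median 534) on slbo arrays and 25.4 to 162 (median 53.2) on WT arrays, 7.32-fold higher (log2 2.87, SE 0.36, adjusted p = 0.000248). LManVI (log2 2.16, SE 0.29) and its neighbour on arm 2L, LManV (log2 2.15, SE 0.37), both of the alpha-mannosidase family, rose, as did the maltase gene Mal-A1 (log2 1.79, SE 0.34). LManV has another probe set, which was below the filter. Of 13 genes of this group 6 were higher and 7 not called (median log2 1.27). Of 18 genes for lipases and lipid handling 3 were higher, 1 lower and 14 not called (median log2 0.30). The acyl-CoA binding protein genes Acbp2 (log2 1.82) and Acbp5 (log2 1.34) rose, with Acbp2 at 80.8 to 245 on slbo arrays and 14.6 to 67.9 on WT arrays. The sterol carrier gene Npc2a was the member called lower (log2 -0.48, adjusted p = 0.0245), a call lost when any of 6 arrays was left out, at adjusted p values up to 0.0636. The magro lipase gene mag, looked at after its values were seen, had 161, 243 and 174 in slbo migratory cells and 12.7, 10.2 and 53.6 in WT migratory cells. In nonmigratory cells mag had 10.6, 73.0 and 25.6 in slbo and 37.7, 10.2 and 22.7 in WT, and over both fractions it was not called (adjusted p = 0.120). Over the 61 digestive genes of these groups that were tested, 24 were higher and 1 was lower, beside 1.83% and 1.4% of all features.

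**Figure D2:**
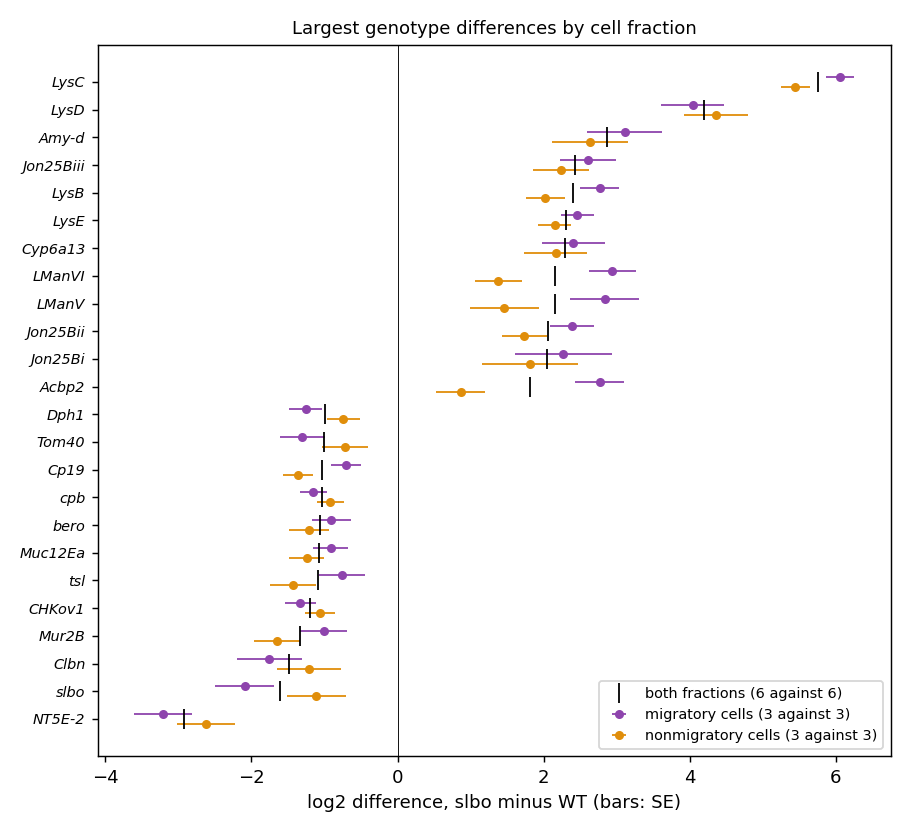
Log2 differences (slbo minus WT) of the 12 largest named increases and the 12 largest named decreases. Points with SE bars give the migratory cells (3 arrays against 3) and the nonmigratory cells (3 against 3). Black ticks give both fractions together (6 against 6). All 24 genes have the same sign in both fractions, which the choice of called genes without overlap in either fraction largely imposes. LManVI and Acbp2 lie farthest apart between fractions relative to their SE.

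The level of gut markers moved with genotype on every array. Their summed signal over 27 genes was 36406, 49883 and 36301 in slbo migratory cells, against 9551, 5219 and 14312 in WT migratory cells. In nonmigratory cells it was 17466, 23797 and 20055 in slbo and 6698, 4666 and 10852 in WT. The mean log2 signal of these markers was 1.60 higher in slbo cells (exact permutation p = 0.005, two-sided, the smallest possible). Of 26 gut markers tested 16 were higher, none was lower and 10 were not called, beside 1.83% of all features called higher and 1.4% lower. Their median log2 difference was 2.10 in migratory and 1.04 in nonmigratory cells. Gut markers were detected on WT arrays too. With the gut level as a covariate LysC (log2 4.99, adjusted p = 6.23e-07), the mucin gene Muc12Ea (log2 -2.18, adjusted p = 0.00567) and the chorion gene Cp19 (log2 -1.97, adjusted p = 0.0227) were the named genes still called under the naming rule. LysC is itself a marker averaged into that level. It was thus adjusted for a mean that contains it, and this fit cannot set its change apart from the gut level. The part of gut transcripts in the other differences was not tested beyond the covariate, and with bulk RNA a changed share of cells and a changed level per cell cannot be told apart.

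**Figure D3:**
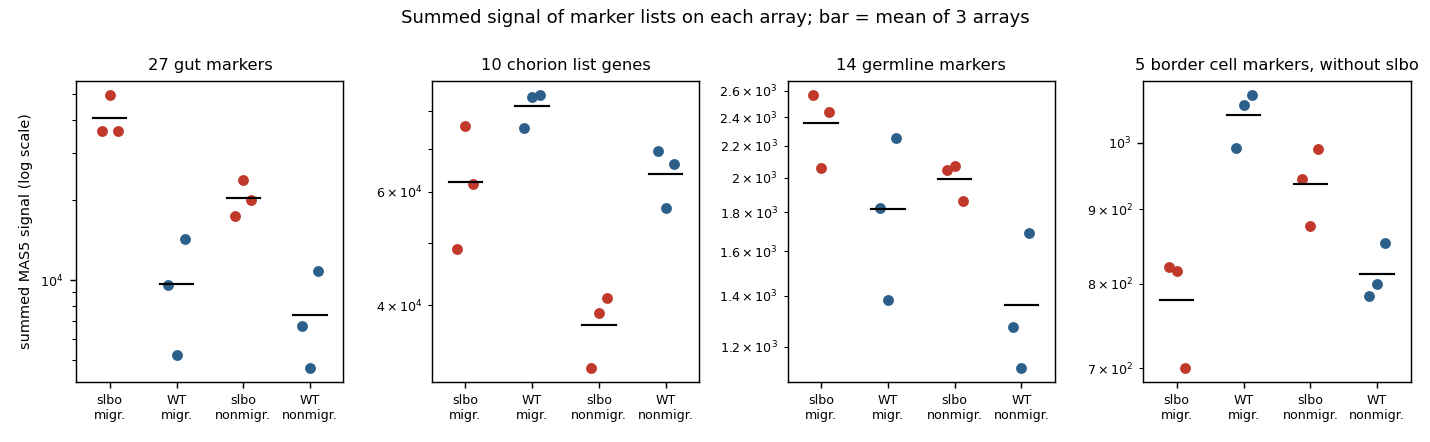
Summed MAS5 signal (log axis) of 27 gut markers, 10 chorion list genes, 14 germline markers and 5 border cell markers other than slbo on each array; points are arrays and bars the mean of 3, with slbo left of WT in each fraction. Gut markers are higher in slbo cells in both fractions, chorion genes are lower, and the border cell markers are lower in slbo migratory cells and higher in slbo nonmigratory cells.

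Some detoxification genes rose. Of 43 cytochrome P450 genes, which oxidise foreign and endogenous compounds, 6 were higher and 37 not called (median log2 0.17), beside 1.83% of all features called higher and 1.4% called lower. Cyp6a13 had 111 to 255 on slbo arrays and 6.3 to 53.6 on WT arrays, at least 3.41-fold higher (adjusted p = 0.000345). Cyp9b2 (log2 1.81, SE 0.24) and Cyp305a1 (log2 0.68, SE 0.10) rose, as did Cyp6a14 by at least 2.38-fold. The other probe set of Cyp9b2 gave log2 0.37 and was not called. Of 28 glutathione transferase genes 2 were called higher, 1 was called lower and 25 were not called (median log2 -0.08). GstE6 (log2 0.78) and GstE3 (log2 0.75) rose and GstS1 fell (log2 -0.73). Without slbo migratory replicate 1 GstE3 was no longer called (adjusted p = 0.0541).

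Some germline transcripts were higher in the mutant. Of 30 germline and maternal genes 6 were higher, none was lower and 24 were not called, with 25 positive differences and a median log2 of 0.31, beside 1.83% of all features called higher and 1.4% called lower. The posterior determinant osk had 361 to 574 (median 502) on slbo arrays and 107 to 532 (median 217) on WT arrays, so that the genotypes overlapped through WT migratory replicate 3 (log2 1.13, SE 0.24, adjusted p = 0.0153). Its call held in all 12 omissions of 1 array but was lost without the variance trend (adjusted p = 0.0665), when both fractions of a genotype and number were averaged (adjusted p = 0.0689) and with the gut level as a covariate (log2 0.082, adjusted p = 0.977). swa, needed to localise bicoid RNA, rose (log2 0.99, adjusted p = 0.0184), a call lost without slbo migratory replicate 1 (adjusted p = 0.0581) or replicate 3 (adjusted p = 0.0501). The calls of otu (log2 1.36), aub (log2 0.87) and the mitotic cyclin gene CycB (log2 0.61) were lost in 4, 7 and 6 of the 12 omissions, at adjusted p up to 0.0657, 0.0764 and 0.0617. The summed signal of 14 germline markers was 1862 to 2567 on slbo arrays and 1126 to 2251 on WT arrays. Of the 4 yolk genes, the yolk receptor gene yl rose (log2 0.61, adjusted p = 0.0404), a call lost in 10 of the 12 omissions at adjusted p up to 0.110, and the other members were not called.

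Increases were also found among genes outside these lists. Hrb87F, which encodes an RNA-binding hnRNP protein, had 637 to 794 (median 745) on slbo arrays and 230 to 406 (median 335) on WT arrays (log2 1.19, SE 0.12, adjusted p = 4.62e-05). Kmn1, a kinetochore protein gene, had 182 to 240 on slbo arrays and 46.6 to 96.7 on WT arrays (log2 1.52, SE 0.18, adjusted p = 0.000139). Pxn, the peroxidasin of basement membranes, had 113 to 140 on slbo arrays and 20.4 to 58.7 on WT arrays (log2 1.57, SE 0.24, adjusted p = 0.00138). The WT signals of Pxn, with a median of 43.05, lay near the 39.2 of the absent controls, so background limits this difference. CG6295 was picked out after its values were seen. No function was given for it in the sources used here, so whether it belongs with the digestive genes was not examined. CG6295 had 40.4 to 416 on slbo arrays and 10 to 28.2 on WT arrays and was at least 4.28-fold higher (SE of the fitted log2 difference 0.40, adjusted p = 0.000372). These 4 genes had no overlap between the genotypes and held in all 12 omissions. The fat body markers Pepck1 (log2 1.17, adjusted p = 0.0179) and FASN1 (log2 0.87, adjusted p = 0.0229) were 2 of 7 called higher, beside 1.83% of all features. The call of Pepck1 was lost without slbo migratory replicate 1 (adjusted p = 0.0504) or replicate 3 (adjusted p = 0.0501), and that of FASN1 in 5 omissions at adjusted p up to 0.0594. Their marker list had summed signals of 979 to 1489 on slbo arrays and 693 to 1214 on WT arrays.

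Among the decreases described here, 2 genes had a mean signal in the mutant no higher than that of the absent controls. CG4962, a gene without an assigned function that was picked out after its values were seen, had 12.0 to 58.0 (median 24.6) on slbo arrays and 401 to 1517 (median 917) on WT arrays. It was at least 17.2-fold lower in slbo cells (adjusted p = 4.32e-07). NT5E-2, of the 5′-nucleotidase family that removes phosphate from nucleotides, had 7.3 to 45.3 (median 17.8) on slbo arrays and 118 to 337 (median 209) on WT arrays. It was at least 4.52-fold lower (adjusted p = 2.18e-05). Neither gene overlapped between the genotypes, and CG4962 fell more in migratory (log2 -5.37) than in nonmigratory cells (log2 -3.74) by an amount that did not pass adjustment (limma interaction adjusted p = 0.621).

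Other decreases were near 2-fold. CHKov1, a choline kinase-like gene, had 66.4 to 163 on slbo arrays and 172 to 465 on WT arrays (log2 -1.20, SE 0.15, adjusted p = 0.000248). The mucin genes Mur2B (log2 -1.33, SE 0.24) and Muc12Ea (log2 -1.08, SE 0.17) fell, and so did Clbn (log2 -1.48), which acts on stalled ribosomes. Clbn averaged 40.1 on slbo arrays, near the 39.2 of the absent controls, so the size of its fall is limited by background. bero (log2 -1.06), the mitochondrial import channel gene Tom40 (log2 -1.01) and Dph1, which acts in diphthamide synthesis (2.00-fold lower), completed the largest changes. Tom40 was no longer called without the variance trend (adjusted p = 0.0677). The most precise decreases were smaller. The proteasome ATPase gene Rpt5 had 1396 to 1586 on slbo arrays and 2100 to 2875 on WT arrays (log2 -0.74, SE 0.08, adjusted p = 7.99e-05). alphaTub84D fell by 0.76, with -0.65 on its other probe set (adjusted p = 0.0532).

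Of the lists described, that of chorion genes, which code for the outer eggshell, held the most decreases. Of 10 chorion list genes 7 were called lower, 1 was called higher and 2 were not called. Over all features 1.4% were called lower and 1.83% higher. The median log2 of the list was -0.67, beside 0.01 over all features. Cp15 had 5662 to 9036 (median 7269) on slbo arrays and 9902 to 13791 (median 12780) on WT arrays, with no overlap (log2 -0.77, SE 0.12, adjusted p = 0.00135). Cp19 had 2860, 5347 and 4032 in slbo migratory cells, against 6145, 6141 and 7124 in WT migratory cells. It had 1619, 2463 and 1892 in slbo nonmigratory cells, against 5387, 4077 and 5833 in WT nonmigratory cells, and fell by 1.03 over both (SE 0.16, adjusted p = 0.00164). Cp38 (log2 -0.68), Cp7Fc (log2 -0.69), and dec (log2 -0.56) fell too. The calls of Cp16 (log2 -1.14, adjusted p = 0.0385) and Cp36 (log2 -0.56, adjusted p = 0.0235) were lost in 9 and 5 of the 12 omissions at adjusted p up to 0.101 and 0.0688.

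Cp18 (log2 -0.65, adjusted p = 0.0830), which is adjacent to Cp15, Cp16 and Cp19 on arm 3L, and psd (log2 -0.21) were not called. Pxt, a peroxidase gene on the list, went the other way (log2 1.07, SE 0.23, adjusted p = 0.0152), at 267 to 557 on slbo arrays and 80.4 to 272 on WT arrays. The summed chorion signal was 48945 to 75980 in slbo migratory cells and 75404 to 84907 in WT migratory cells. In nonmigratory cells it was 31933 to 40970 in slbo and 56534 to 69349 in WT, so that the genotypes overlapped in the migratory fraction through slbo migratory replicate 2. Of 11 vitelline membrane list genes 2 were lower and 9 not called (median log2 -0.33), beside 1.4% of all features called lower. Fcp3C, a follicle cell protein gene, had 1441, 2142 and 1826 in slbo migratory cells and 3033, 2995 and 2776 in WT migratory cells. In nonmigratory cells Fcp3C had 449, 489 and 602 in slbo and 1136, 930 and 891 in WT (log2 -0.83, SE 0.11, adjusted p = 0.000372). tsl, a follicle cell cue for the ends of the embryo, fell by 1.09 (SE 0.23, adjusted p = 0.0153). In slbo nonmigratory cells tsl was 39.1, 20.6 and 11.6, not above the 39.2 of the absent controls. The size of its fall there is thus limited by background.

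**Figure D4:**
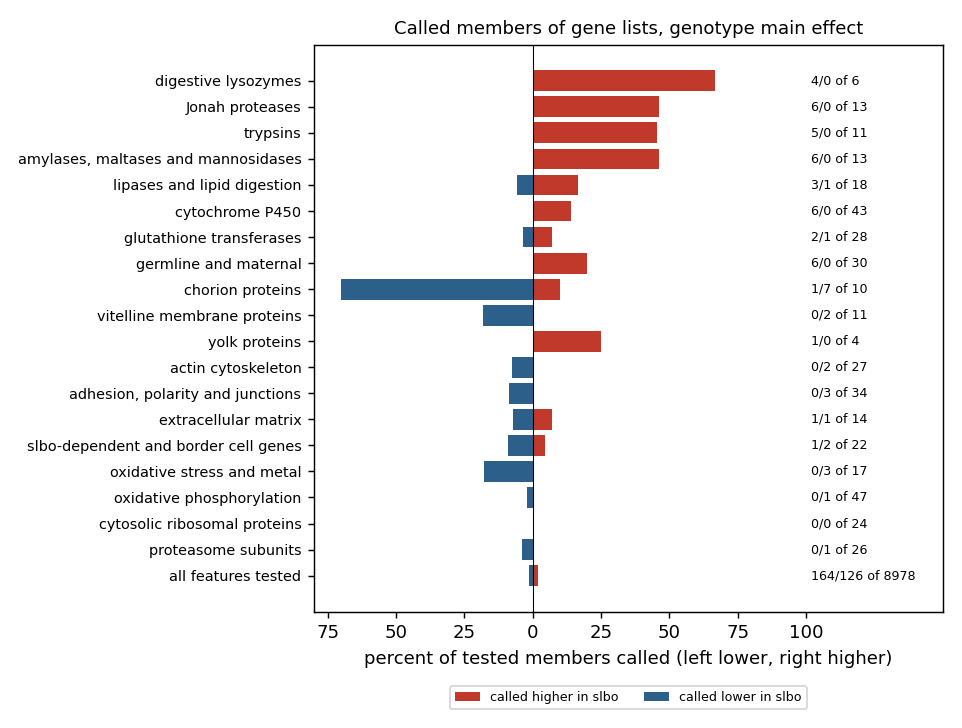
Percent of the tested members of 19 gene lists, and of all 8978 features, that were called higher (right, red) or lower (left, blue) in slbo cells; figures at the right give higher/lower of tested. Digestive lists reach 45.5% to 66.7% higher, apart from the lipid list at 16.7%, and the chorion list reaches 70% lower.

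Further genes were lower in the mutant. phtm, which encodes an enzyme of ecdysone synthesis, and the relaxin-like hormone gene Ilp8 were picked out after their values were seen. phtm had 161 to 367 on slbo arrays and 236 to 708 on WT arrays (log2 -0.89, adjusted p = 0.00273). Ilp8 had 108 to 225 on slbo arrays and 176 to 361 on WT arrays (log2 -0.94, adjusted p = 0.0150). Of 17 oxidative stress and metal genes 3 were lower and 14 not called (median log2 -0.04), beside 1.4% of all features called lower. The extracellular superoxide dismutase gene Sod3 had 574 to 847 on slbo arrays and 933 to 1478 on WT arrays, with no overlap (log2 -0.63, adjusted p = 0.000547). Its other probe sets gave -0.15, not called, and -0.48, and the mean over the probe sets was not called (log2 -0.42, adjusted p = 0.214). The ferritin subunit genes Fer1HCH (log2 -0.50) and Fer2LCH (log2 -0.48) were called with all arrays, and the calls were lost in 8 and 6 of the 12 omissions, at adjusted p up to 0.0906 and 0.0569.

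Genes of cell migration and adhesion were set beside the 1.83% of all features called higher and the 1.4% called lower. Of 22 slbo-dependent and border cell genes tested 1 was called higher, 2 were called lower and 19 were not called (median log2 0.04). The lower members were slbo itself and sn, the fascin gene that bundles actin (log2 -0.62, adjusted p = 0.0393), whose call was lost in 10 of the 12 omissions at adjusted p up to 0.105. The higher member was the adducin gene hts, at least 1.59-fold (adjusted p = 0.0293), lost in 8 omissions at adjusted p up to 0.0775. The E-cadherin gene shg, a known slbo-dependent gene of border cells, gave log2 0.17 (adjusted p = 0.751) with -0.14 in migratory and 0.49 in nonmigratory cells. jing gave -0.09 (adjusted p = 0.940) with -0.82 in migratory and 0.63 in nonmigratory cells, so that opposite values cancelled in the average.

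The lists of actin, adhesion, matrix and transcription factor genes were set beside the same 1.83% of all features called higher and 1.4% lower. Of 27 actin cytoskeleton genes 2 were lower, sn and cpb, and 25 were not called (median log2 -0.13). cpb, the beta subunit gene of the capping protein that stops growth of actin filament ends, had 383 to 562 (median 407) on slbo arrays and 643 to 1431 (median 848) on WT arrays, with no overlap (log2 -1.04, SE 0.13, adjusted p = 0.000268). Of 34 adhesion, polarity and junction genes 3 were lower and 31 not called (median log2 -0.16). The septate junction gene Tsf2 fell (log2 -0.73, adjusted p = 0.00408). The neurotactin gene Nrt (log2 -0.67, adjusted p = 0.0222) and the beta integrin gene mys (log2 -0.53, adjusted p = 0.0393) were called with all arrays and lost in 5 and 8 of the 12 omissions, at adjusted p up to 0.0624 and 0.103. Of 14 matrix genes Pxn was higher and the prolyl hydroxylase gene PH4alphaEFB was lower (log2 -0.63, adjusted p = 0.000834, with -0.69 and no call on its other probe set). Among 14 follicle cell transcription factor genes emc was called, higher by 0.41 (SE 0.08, adjusted p = 0.0102), at 1471 to 1759 on slbo arrays and 1034 to 1412 on WT arrays. Its call was lost with each array centred on its median (log2 0.33, adjusted p = 0.0809) and without the variance trend (adjusted p = 0.0816).

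Counts of signalling and housekeeping genes were set beside the 3.23% of all features called. None of 6 JAK-STAT, 12 Notch, 16 ecdysone response and 10 Dpp pathway genes was called by limma, with 1, 1, 2 and 1 at an unadjusted p under 0.05. The members with the lowest p were dome (log2 0.28, adjusted p = 0.268), E(spl)m7-HLH (log2 0.40, adjusted p = 0.199), Hr3 (log2 -0.52, adjusted p = 0.169) and tkv (log2 -0.48, adjusted p = 0.271). Of 47 oxidative phosphorylation genes ATPsynF was called, lower by 0.35, a call lost in 10 omissions at adjusted p up to 0.101. Of 26 proteasome genes Rpt5 was called lower, and 22 differences were negative (median log2 -0.09). None of 24 cytosolic ribosomal protein genes was called, with 5 at an unadjusted p under 0.05 by limma, and 23 differences were negative (median log2 -0.12, but 0.02 after quantile normalization). With each array centred on its median 1 of the 24 was called, lower, and 15 had an unadjusted p under 0.05.

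The common difference was set beside the difference within each fraction. All 290 called features had the same sign in both fractions, which the average in part imposes. Of these 242 had an unadjusted p under 0.05 in both fractions and 211 had no overlap between genotypes in either fraction, beside 3.61% of all features. In 96 all 6 slbo arrays lay on 1 side of all 6 WT arrays, beside 1.31% of all features. The 290 were chosen on these same arrays for a difference large against its spread, so these counts describe that choice. The 3 against 3 comparisons called 174 features in migratory cells (1.94%), of which 160 had the same sign in nonmigratory cells and 99 also an unadjusted p under 0.05 there. In nonmigratory cells they called 60 features (0.668%), of which 58 had the same sign in migratory cells and 50 also an unadjusted p under 0.05 there. The 290 included 146 features called in neither fraction alone. Across the 8978 features the differences in the fractions correlated at r = 0.295 and shared their sign in 55.7%. They used no array in common, and genes are not independent of each other.

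**Figure D5:**
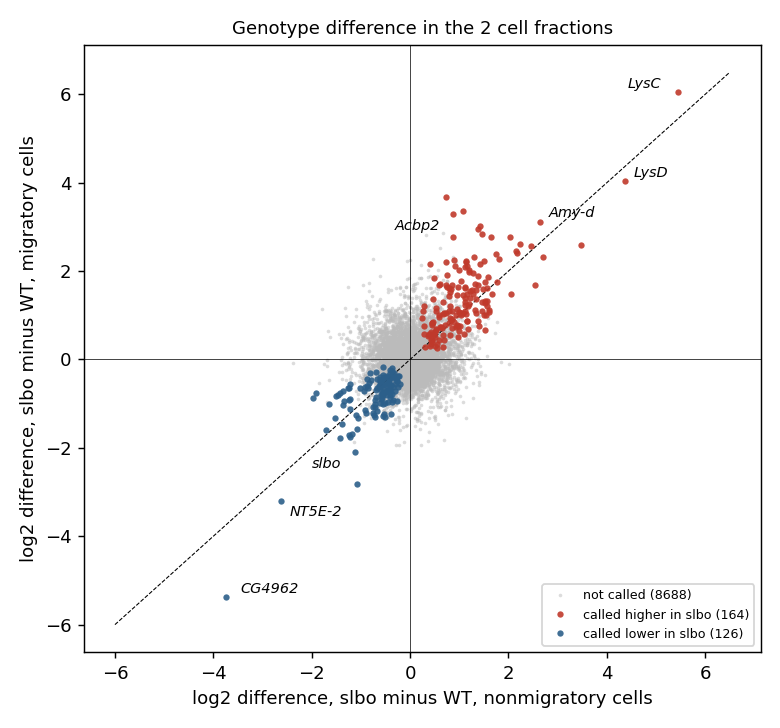
Log2 difference (slbo minus WT) in migratory cells against that in nonmigratory cells for 8978 features; red points were called higher and blue points lower over both fractions, grey points were not called, and the dashed line marks equal differences. LysC, LysD and Amy-d lie near the line, whereas Acbp2 lies above it and CG4962 below.

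No difference between the fractions passed adjustment. The interaction, which asks whether the genotype difference varied with the fraction, called 0 features by limma (lowest adjusted p 0.213), with 603 at an unadjusted p under 0.05 (6.72%), and it had a median SE of 0.43. Of the 290 features 35 had an unadjusted interaction p under 0.05, and 203 differed between fractions by less than 0.5 log2. The absolute difference was larger in migratory cells in 189 of the 290. LysD, LysE and Jon25Biii differed little between fractions, with 4.04, 2.46 and 2.61 in migratory cells and 4.36, 2.15 and 2.24 in nonmigratory cells. Acbp2 gave 2.77 in migratory and 0.87 in nonmigratory cells (limma interaction adjusted p = 0.457), and LManVI gave 2.94 in migratory and 1.38 in nonmigratory cells (limma interaction adjusted p = 0.621). A missed threshold in this test does not show that the fractions respond alike.

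Positions in the genome were compared because the slbo alleles lie on chromosome 2, whose other sequences may differ between the stocks. The share of genes called was 2.28% on arm 2L (1402 tested), 3.60% on 2R (1584), 3.54% on 3L (1555), 3.30% on 3R (1939) and 3.13% on X (1376), and 0 of 33 genes on chromosome 4, with 1 at an unadjusted p under 0.05. Over all features 3.23% were called and 13.7% had an unadjusted p under 0.05 by limma. The slbo gene lies on 2R, and of the 25 genes on either side of it 28 were tested and none was called by limma, with 2 at an unadjusted p under 0.05. At the shares over all features, so few genes could hold no call, so these counts do not show an unchanged region. Among the largest changes LysC and CG4962 lie on 3L, and NT5E-2 on 2R.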

How the data were processed

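The deposited values were MAS5 signal intensities per the submitters' processing notes, with no version stated, and were kept as the authors gave them for 14010 probe sets on 12 arrays. Per-array trimmed means lay between 150.026 and 150.030, and within-group correlations between 0.918 and 0.951. Precision is limited by the number of arrays. Of the probe sets 44 were controls, 12443 had 1 gene in the annotation used, 327 several and 1196 none. They gave 10844 genes, 10799 matched to RefSeq by gene ID with 0 symbols updated. Where a gene had more than 1 probe set (1209 genes), that of highest mean log2 signal stood for it. Of 12367 features 8978, namely 7921 genes and 1057 unnamed probe sets, exceeded the 40th percentile on at least 3 arrays and were tested.

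A constant of 7.50, which is 5% of the trimmed mean, was added before log2 was taken, and limma 3.58.1 in R 4.3.3 fitted genotype with cell fraction as a block and an intensity trend in the variance (9 residual degrees of freedom). Differences within fractions and the interaction came from a fit of 4 group means (8 degrees of freedom). Folds are bounds where the dimmer genotype averaged 39.2 or less, the 95th percentile of signals of 23 absent controls averaged over arrays. On simulated data with 200 of 8978 features changed, the genotype test recovered 63% of changes of 1 log2 unit and 97% of changes of 2. False calls made up 5.88%. The simulated noise was independent between features and held no variation shared by genes, so these rates may not hold for the arrays. Same-numbered arrays of different groups, within and across genotypes, had correlations of their deviations from -0.076 to 0.083 over 18 pairs. The numbers thus showed no pairing over all features together, which does not exclude it for some genes. In WT cells the summed gut signal was highest in replicate 3 and lowest in replicate 2 in both fractions. In slbo cells it was highest in replicate 2 in both fractions, and the other replicates changed order. Whether same-numbered arrays shared a preparation was not tested further.

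The rule for names took slbo and, for increases and decreases alike, the 12 largest called differences, leaving out CG and CR numbers and requiring no overlap between genotypes in either fraction and a brighter genotype above the median signal, with the 6 lowest p-values among such genes whose interaction was under 0.5. Up to 4 called members of each list with the lowest p, or 2 where none was called, were added. List members described as not called outside this rule, and CG4962, CG6295, mag, phtm, Ilp8, Cp7Fc, Cp16, Pxt, LysP, LysS, shg and jing, were chosen after their values were seen. The lists, and the comparison itself, were chosen with earlier results of these data known, and lists are described by counts with no test. Tables and figures were made in Python 3.11.15 (pandas 2.3.3, numpy 2.4.6, matplotlib 3.10.9). No sequences were used here.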

Additional observations from a re-analysis of the deposited data

Results flagged for a closer look

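On 8 occasions among 212 groups of 6 arrays examined, 1 array stood apart from the other arrays of its genotype by Dixon's criterion for the gap to the nearest value over the range, where chance gives about 1 in 20. Among called genes, Kmn1 was 182 in slbo nonmigratory replicate 3, against 220 to 240 on the other slbo arrays, still above every WT array. GstS1 was 825 in slbo nonmigratory replicate 1, against 515 to 591 on the other slbo arrays. otu was 50.7 in slbo nonmigratory replicate 3, against 145 to 237 on the other slbo arrays, and so lay within the WT range. Among genes not called, mam was 532 and DptB 80.6 in WT migratory replicate 2, against 1403 to 2231 and 141 to 174 on the other WT arrays. Tm2 was 60.9 in WT nonmigratory replicate 1, against 138 to 200 on the other WT arrays. Hr39 was 35.6 in WT nonmigratory replicate 2, against 79.8 to 113 on the other WT arrays, and NtR was 85.4 in WT nonmigratory replicate 3, against 38.7 to 51.3 on the other WT arrays. The causes were not tested.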

How the results depend on the processing

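The 290 calls numbered 276 after quantile normalization, 288 with median centring (127 higher and 161 lower, against 164 and 126), 254 with no filter, 298 with a filter at the 60th percentile, 280 and 304 with added constants of 1% and 20%, 331 with array weights and 310 with 4 group means. They numbered 158 without the variance trend and 189 when both fractions of a genotype and number were averaged (3 against 3). The replicate block, for numbers that showed no pairing over all features together, gave 269 calls, 255 of them among the 290. A random block for a shared preparation gave 292. The GAPDH ratio as a covariate gave 269. The gut marker mean as a covariate gave 12, or 7 with gut markers set aside, and slbo was then -0.96 (adjusted p = 0.768 and 0.769). Leaving gut markers out of the table, an alternative chosen after seeing the data, left 270. Omitting 1 array gave 185 to 300 calls, with 185 lacking slbo migratory replicate 1. The interaction had 0 calls in every setting run other than without WT migratory replicate 3, which gave 2, CG11200 and CG10472. Of 72 called named genes 44 kept their call in every setting other than the gut covariates, 50 in all 12 omissions and 3 with the gut covariate. These 3 include LysC, which is a marker within that covariate. With that covariate the sign changed for Jon25Bi (-1.18), Jon99Fii (-0.41), epsilonTry (-0.13), alphaTry (-1.25), betaTry (-1.18), Mal-A1 (-0.89), Acbp5 (-0.095), yl (-0.096), Pepck1 (-0.058) and CycB (-0.075). Of these, Jon25Bi, Jon99Fii, alphaTry, betaTry, Mal-A1 and Acbp5 are gut markers averaged into the covariate. Each was thus adjusted for a mean that contains it, and its change of sign carries no separate information. Among genes not called it changed for apt (-0.41), mam (-0.85), Mur18B (-0.56), PGRP-SC2 (-0.77), DptB (-0.43), Hsp68 (0.56), Spn77Ba (-0.090), Atg7 (0.20), crc (0.20) and Jra (0.084), and neur ran from -0.39 to 0.062 over the omissions of 1 array. Averaging leaves fewer samples, and the gut level does not overlap between genotypes. The cause of the other changes was not tested. Folds against signals near those of absent controls are limited by background. A planned search of promoters was not run.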
